A study of Mus musculus with 6 samples.

Results

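Transcripts of 10 feedback and target genes of the FGF-ERK pathway were followed in mouse embryonic stem cells with and without normal THAP1, a zinc finger transcription factor whose human mutations cause an inherited dystonia. The genes were picked by symbol: the phosphatase genes Dusp6 and Dusp4, the inhibitor genes Spry2, Spry4 and Spred1, the Ets factor genes Etv4 and Etv5, and the immediate early genes Egr1, Fos and Ier3. All 10 were among the 19713 genes of the deposited table, and all 10 were among the 15287 genes with enough signal to be tested. RNA was sequenced from cells lacking THAP1 (THAP1 -/-, made by deletion of exon 2, here KO), from cells whose 2 Thap1 alleles both carry C54Y, an amino acid change in its DNA-binding domain (here C54Y) and from wild-type cells (WT) (2 libraries per genotype, labelled rep 1 and rep 2). All of them came from C57Bl/6 blastocysts and grew in fetal calf serum with leukemia inhibitory factor (LIF, 1000 units per ml) on irradiated mouse embryonic fibroblasts. The labels do not say whether a genotype is 1 clone or several, whether the 2 libraries of a genotype came from separate cultures, or how far feeder cells were removed, so p-values measure only the spread between these libraries.

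In the FGF-ERK pathway a fibroblast growth factor binds a receptor tyrosine kinase, adaptors load Ras with GTP, and the Raf, MEK and ERK kinases are switched on in turn. Mouse embryonic stem cells make their own ligand, chiefly Fgf4, and ERK signalling moves them out of naive self-renewal, while in the blastocyst the same pathway directs inner cell mass cells to primitive endoderm. Active ERK induces genes that then damp the signal, so the transcripts of its phosphatases, Sprouty and Spred inhibitors and Ets factors are widely read as gauges of pathway output.

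The members lie on 9 chromosomes. On GRCm38.p6 Dusp6 spans chr10:99263231-99267489, Spry2 chr14:105891947-105896819 and Spred1 chr2:117121071-117182279. Dusp4 lies on chromosome 8, Etv4 on 11, Etv5 on 16, Fos on 12, Ier3 on 17, and Spry4 and Egr1 on 18. No exon of another gene in GENCODE M21 overlapped an exon of a member on either strand. RefSeq promoters on GRCm38.p6 were matched for 6 members (7 start sites, Etv5 having 2), in windows running from 250 bases before the start to 50 bases after it, and none was matched for Dusp4, Spry4, Etv4 and Egr1. The 250 bases before the start are printed 5′ to 3′ on the gene's strand for 5 members: Dusp6, Spred1 and Spry2, whose transcripts fell in KO cells, and Etv5 and Ier3, the only matched members whose window held the THAP1 core motif TNNGGCA, which is in capitals. They are, in that order, chr10:99262981-99263230 (plus strand), chr2:117120821-117121070 (plus), chr14:105896820-105897069 (minus), chr16:22439571-22439820 (minus) and chr17:35821463-35821712 (plus).
Dusp6: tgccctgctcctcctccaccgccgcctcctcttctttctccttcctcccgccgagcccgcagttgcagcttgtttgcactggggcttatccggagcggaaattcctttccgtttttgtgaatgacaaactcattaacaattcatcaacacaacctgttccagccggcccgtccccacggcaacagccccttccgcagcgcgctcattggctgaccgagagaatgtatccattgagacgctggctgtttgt
Spred1: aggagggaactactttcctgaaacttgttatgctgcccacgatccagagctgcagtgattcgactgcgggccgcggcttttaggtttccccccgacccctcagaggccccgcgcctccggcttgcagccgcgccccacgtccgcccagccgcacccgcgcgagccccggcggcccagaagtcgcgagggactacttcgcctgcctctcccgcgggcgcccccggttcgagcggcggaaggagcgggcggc
Spry2: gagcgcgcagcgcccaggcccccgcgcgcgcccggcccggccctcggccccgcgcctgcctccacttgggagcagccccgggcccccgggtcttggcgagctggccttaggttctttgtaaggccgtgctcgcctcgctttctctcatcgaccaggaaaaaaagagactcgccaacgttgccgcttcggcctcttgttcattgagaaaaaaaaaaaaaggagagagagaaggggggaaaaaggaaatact
Etv5: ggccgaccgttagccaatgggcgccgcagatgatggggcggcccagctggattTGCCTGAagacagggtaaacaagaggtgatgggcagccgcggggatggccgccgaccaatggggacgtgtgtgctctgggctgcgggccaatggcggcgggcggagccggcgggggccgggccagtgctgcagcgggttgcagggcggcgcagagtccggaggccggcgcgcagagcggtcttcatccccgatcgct
Ier3: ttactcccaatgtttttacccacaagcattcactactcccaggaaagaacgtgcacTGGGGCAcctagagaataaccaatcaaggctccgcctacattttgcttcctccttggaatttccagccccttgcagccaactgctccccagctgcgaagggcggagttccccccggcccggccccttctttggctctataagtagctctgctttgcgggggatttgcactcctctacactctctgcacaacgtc

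Motifs were searched on both strands of the whole windows. The THAP1 core TNNGGCA stood at -197 to -191 in Etv5, on the opposite strand, and at -194 to -188 in Ier3, so in 2 of 7 member windows against 40% of all 32851 promoters in the table. The short Ets core CCGGAA was found in Spry2 alone, at 34 to 39 bases after the start and thus outside the printed bases, against 14.9% of all promoters. The YY1 core AANATGGC (6.05% of all promoters), the longer Ets site CCGGAAGT, which contains CCGGAA (3.89%), the AP-1 site TGANTCA (7.81%), the cyclic AMP response element TGACGTCA (1.79%) and the serum response element (1.63%) were in none of the 7 windows. A match describes the letters of a window and does not show that a factor binds there. A missing match covers only these 7 windows and these exact patterns. Sites further upstream, variant sites and the promoters of Dusp4, Spry4, Etv4 and Egr1 were not searched. No THAP1 core stood in the windows of the 3 members that fell.

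Values are normalized counts, reads per gene divided by a size factor of each library. Library depth ran from 31774656 to 46772996 reads, with 17061 to 18481 genes detected. All 6 embryonic stem cell markers of a fixed list were abundant in every library, between 7539 and 233307 normalized counts. Thap1 itself had 1975 and 1687 normalized counts in KO, 2253 and 2533 in C54Y and 433 and 701 in WT (replicates 1 and 2), so the whole-gene count was higher in KO (log2 fold change 1.72 ± 0.22 SE, limma adjusted p = 0.0018) and in C54Y (2.11 ± 0.22, adjusted p = 0.00301). Gene-level reads of this kind cannot show the deletion or the changed base. Replicate number parted the libraries more than genotype did, with 64.9% of tested genes called between replicate 2 and replicate 1 and Rn45s, a ribosomal RNA precursor, taking up to 2.05% of the reads of a replicate 2 library but no more than 0.600% in replicate 1. Genotypes were therefore compared within replicate numbers, by limma with replicate number as a block over all 6 libraries, and a gene is said to have risen or fallen where its p-value, adjusted by the Benjamini-Hochberg method over all 15287 genes, was below 0.05. Without the block, limma called 0 of the 15287 genes between KO and WT (1049 at an unadjusted p below 0.05) and edgeR called 0 (1094 unadjusted), so every call given here rests on pairing libraries by replicate number.

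The KO against WT comparison asked which transcripts differ in cells lacking THAP1. Of the 10 members, 3 fell and 0 rose: Dusp6, to 0.347 of its level in WT, and with smaller falls Spred1 and Spry2. The other 7 were not called and pointed both ways. Among all tested genes, 16.3% were called (8.9% up and 7.41% down), beside 3 of 10 members down and 0 up. The members' median log2 fold change was -0.20, against 0.03 over all tested genes. The members were chosen with earlier results of these data known, so these shares describe the set and do not test it. At an unadjusted p below 0.05 there were 5 members, against 31.1% of all tested genes, the other two being Egr1 and Etv4. Markers of primitive and parietal endoderm were lower in the same comparison (10 of 12 fell), and in bulk RNA fewer cells of a type and less RNA per cell cannot be told apart. Over all genes limma called 1361 up and 1133 down, and edgeR with TMM scaling called 1088 up and 1369 down.

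Dusp6 encodes a cytoplasmic phosphatase that removes phosphate from ERK itself. It had 1524 and 1400 normalized counts in the KO libraries, 2924 and 2008 in the C54Y libraries and 4330 and 4110 in the WT libraries (replicates 1 and 2). Both KO libraries lay below both C54Y libraries, and these below both WT libraries. Means were 1462 ± 87.3 in KO, 2466 ± 647 in C54Y and 4220 ± 155 in WT (SD, n = 2 each). Dusp6 fell by 65.3% in KO against WT (log2 fold change -1.53 ± 0.16 SE, 95% interval -1.90 to -1.16, limma adjusted p = 0.000945). The change was -1.51 within replicate 1 and -1.55 within replicate 2. Dusp6 was called in KO under each alternative that kept the replicate block, including each of the 6 libraries left out in turn.

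**Figure D1:**
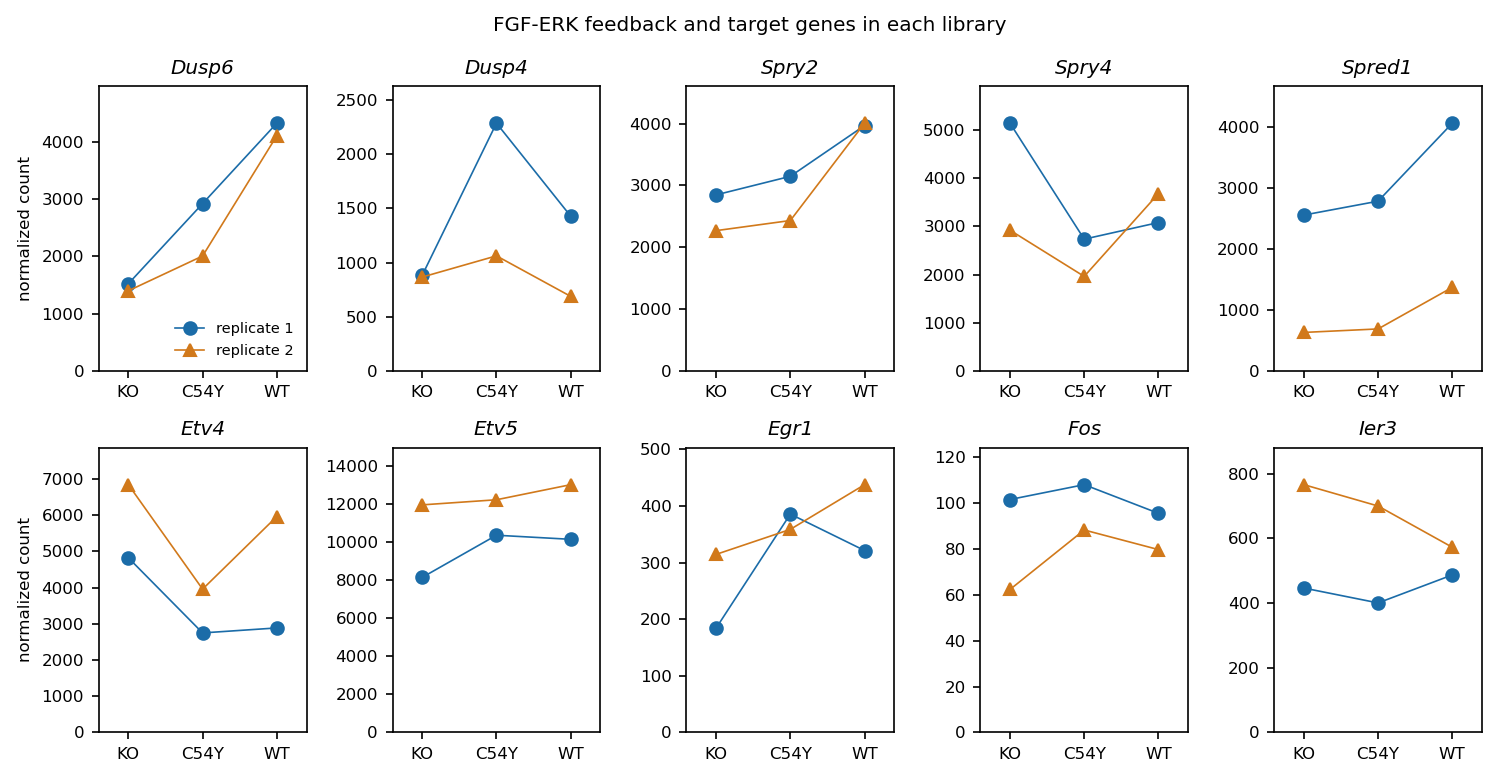
Normalized count of each of the 10 members (vertical axes start at 0) in KO, C54Y and WT libraries, with lines joining libraries of the same replicate number (circles, replicate 1; triangles, replicate 2). Dusp6 is lowest in KO and highest in WT in both replicates, and Spred1 differs more between replicate numbers than between genotypes.

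Dusp4, which encodes a related nuclear phosphatase of ERK and other MAP kinases, did not follow Dusp6. Its normalized counts were 883 and 867 in KO, 2288 and 1063 in C54Y and 1429 and 688 in WT. The KO libraries were nearly equal and lay between the 2 WT libraries. The change in KO against WT was -0.69 within replicate 1 and 0.33 within replicate 2, and the fitted value was -0.18 ± 0.26 (log2 fold change ± SE, 95% interval -0.76 to 0.40, limma adjusted p = 0.68). Without KO replicate 2, which leaves 1 KO library assumed to vary like the other groups, it was -0.71 (adjusted p = 0.00118), and it was positive without KO replicate 1 (0.34, adjusted p = 0.0922).

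Sprouty and Spred proteins act between the receptor and Raf. Spry2 had 2848 and 2269 normalized counts in KO, 3148 and 2433 in C54Y and 3970 and 4008 in WT. Both KO libraries and both C54Y libraries lay below both WT libraries, while KO and C54Y overlapped. Spry2 fell by 36.2% in KO (log2 fold change -0.65 ± 0.15 SE, 95% interval -0.998 to -0.30, limma adjusted p = 0.0225). Spred1, whose product brings the Ras inactivator neurofibromin to the membrane, had 2551 and 630 normalized counts in KO, 2778 and 687 in C54Y and 4055 and 1368 in WT. It was lower in KO than in WT within each replicate number (-0.67 and -1.12), but the replicate 1 libraries of both mutants exceeded the WT replicate 2 library, so the groups overlapped. By the fit Spred1 fell by 46.1% (-0.89 ± 0.17, 95% interval -1.28 to -0.51, limma adjusted p = 0.00996). Both falls were no longer called when WT replicate 2 was left out (Spred1 -0.67, adjusted p = 0.119; Spry2 -0.47, adjusted p = 0.293).

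Spry4, the other Sprouty gene of the set, did not fall with Spry2 in KO, while in C54Y against WT both were lower in both replicates (-0.54 for Spry4 and -0.53 for Spry2, neither called). It had 5142 and 2921 normalized counts in KO, 2735 and 1962 in C54Y and 3080 and 3680 in WT. The 2 replicates disagreed in KO against WT, at 0.74 and -0.33, around a fitted 0.20 ± 0.23 (limma adjusted p = 0.597). The sign turned negative without KO replicate 1 (-0.15, adjusted p = 0.654) or without WT replicate 1 (-0.25, adjusted p = 0.633). KO replicate 1 had the highest Spry4 count of all 6 libraries.

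Etv4 and Etv5 encode Ets transcription factors of the PEA3 group, which stand downstream of FGF receptors in many tissues. Etv4 had 4824 and 6844 normalized counts in KO, 2748 and 3958 in C54Y and 2886 and 5964 in WT. KO was higher than WT within each replicate number, by 0.74 and 0.20, and the libraries overlapped. The fitted difference of 0.47 ± 0.17 did not pass the threshold (95% interval 0.09 to 0.85, limma adjusted p = 0.0921). It was called without KO replicate 2 (0.61, adjusted p = 0.00799) and without WT replicate 2 (0.74, adjusted p = 0.0434). Etv5 had 8157 and 11971 normalized counts in KO, 10374 and 12239 in C54Y and 10158 and 13034 in WT. All 3 genotypes overlapped, and the fitted difference in KO was -0.22 ± 0.13 (95% interval -0.52 to 0.08, limma adjusted p = 0.293), called only without KO replicate 2 (-0.35, adjusted p = 0.0475).

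Immediate early genes are transcribed within minutes of ERK activation without new protein synthesis. Egr1, a zinc finger factor gene, had 184 and 314 normalized counts in KO, 386 and 359 in C54Y and 321 and 438 in WT. Both KO libraries lay below the 4 others, by a narrow margin for KO replicate 2. The fitted difference from WT was -0.64 ± 0.25 (95% interval -1.21 to -0.06, limma adjusted p = 0.126), and it was called without KO replicate 2 (-0.93, adjusted p = 0.00674). Fos, a subunit of AP-1, had 102 and 62.4 normalized counts in KO, 108 and 88.3 in C54Y and 95.6 and 79.8 in WT. Its libraries held only 49 to 159 reads of Fos, and the difference in KO was -0.13 ± 0.28 (95% interval -0.78 to 0.52, limma adjusted p = 0.801), with 0.09 within replicate 1, -0.35 within replicate 2 and a change of sign to 0.08 without KO replicate 2. Ier3, whose product is an ERK substrate tied to cell survival, had 446 and 766 normalized counts in KO, 400 and 700 in C54Y and 487 and 573 in WT. Its difference of 0.15 ± 0.21 (95% interval -0.33 to 0.63, limma adjusted p = 0.682), from -0.12 within replicate 1 and 0.42 within replicate 2, became -0.13 without WT replicate 2.

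**Figure D2:**
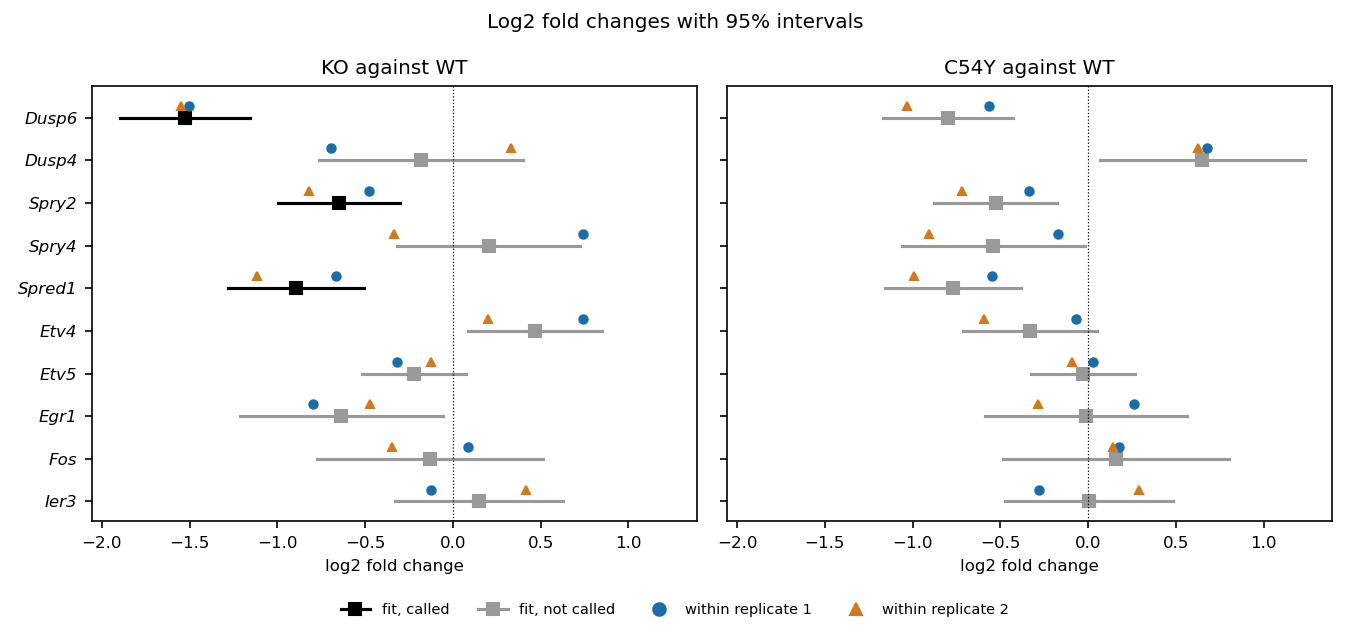
Log2 fold change of each member against WT in KO (left) and C54Y (right), as limma fits with 95% intervals (squares and bars, black where called) and the difference within replicate 1 (circles) and within replicate 2 (triangles). Dusp6 stands at -1.53 in KO and -0.80 in C54Y with both replicates on the same side, while Dusp4, Spry4, Fos and Ier3 have replicates on opposite sides of 0 in KO.

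Groups whose libraries did not overlap can be counted as well. In KO against WT, Dusp6, Spry2 and Egr1 lay wholly below WT and no member lay wholly above it, against 13.6% of all tested genes in each direction. Lower in both replicate numbers were 5 members (Dusp6, Spry2, Spred1, Etv5 and Egr1), against 29.5% of all tested genes, and Etv4 was higher in both.

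The C54Y against WT comparison asked the same of a protein with an altered DNA-binding domain. Limma called 0 of the 10 members, where 1.36% of all tested genes were called (0.962% up and 0.399% down), and 5 members had an unadjusted p below 0.05, against 12.3% of all tested genes. EdgeR with the block also called 0, whereas DESeq2 and limma-voom each called 2, Dusp6 and Spred1, both lower. The member with the smallest p was Dusp6 at -0.80 ± 0.16 (95% interval -1.17 to -0.43, limma adjusted p = 0.0587), with -0.57 within replicate 1 and -1.03 within replicate 2. Spred1 stood at -0.77 ± 0.17 (adjusted p = 0.0768), Spry2 at -0.53 ± 0.15 (adjusted p = 0.169) and Spry4 at -0.54 ± 0.23 (adjusted p = 0.384), each lower within both replicates. Dusp4 pointed the other way, at 0.65 ± 0.26 (95% interval 0.07 to 1.23, limma adjusted p = 0.336), with 0.68 and 0.62 in the replicates. Etv4 was at -0.33 ± 0.17 (adjusted p = 0.485). Etv5, Egr1 and Ier3 lay within 0.03 of 0 (-0.03, -0.01 and 0.00), with 95% intervals of -0.33 to 0.27 for Etv5, -0.59 to 0.56 for Egr1 and -0.47 to 0.48 for Ier3. Fos was at 0.16 ± 0.28 (adjusted p = 0.9). Dusp6, Spry2 and Spry4 lay wholly below WT, against 8.69% of all tested genes, and no member lay wholly above it, against 9.3%. Lower in both replicate numbers were 5 members, against 32.6% of all tested genes. The calls turned on single libraries. Leaving out either KO library left the C54Y against WT values unchanged, since KO libraries do not enter that difference. Calls of Dusp6, Spred1, Spry2 and Dusp4 in those fits came with a changed estimate of the spread, not a changed difference. Without WT replicate 1, the values of Dusp6 (-0.93), Spred1 (-0.99) and Spry4 (-0.99) lay further from 0. The KO and C54Y comparisons share the 2 WT libraries, so their values are not independent of each other.

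Setting KO directly against C54Y tested the difference between the mutants. Limma called 0 of the 10 members, beside 0.19% of all tested genes (0.0458% up and 0.144% down), and 5 members had an unadjusted p below 0.05, against 15.4% of all tested genes. EdgeR with the block called 0, and DESeq2 and limma-voom each called 2, Etv4 (higher in KO) and Dusp6 (lower in KO). Etv4 was at 0.80 ± 0.17 (95% interval 0.42 to 1.18, limma adjusted p = 0.0887), with 0.81 and 0.79 in the replicates, and both KO libraries exceeded both C54Y libraries. Spry4 was at 0.74 ± 0.23 (adjusted p = 0.188), with KO libraries again wholly above C54Y. Dusp6 was at -0.73 ± 0.16 (95% interval -1.10 to -0.36, adjusted p = 0.102), Dusp4 at -0.83 ± 0.26 (adjusted p = 0.188) and Egr1 at -0.62 ± 0.25 (adjusted p = 0.293), each with KO wholly below C54Y. Wholly above stood 8.64% and wholly below 8.84% of all tested genes. In both replicate numbers 7 members were lower in KO than in C54Y, against 25.7% of all tested genes. Spred1 and Spry2 both differed by -0.12 (95% intervals -0.51 to 0.26 and -0.47 to 0.23), Etv5 by -0.19, Fos by -0.29 and Ier3 by 0.14. Leaving out either WT library left the KO against C54Y values unchanged, since WT libraries do not enter that difference. Calls of Etv4, Dusp6, Spry4 and Dusp4 in those fits came with a changed estimate of the spread. Without KO replicate 1, Etv4 was at 0.66 and Dusp6 at -0.64. Without KO replicate 2, Etv4 was at 0.94, Dusp6 at -0.82, Spry4 at 1.09, Dusp4 at -1.36 and Egr1 at -0.92.

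Several members differed between replicate numbers as much as or more than between genotypes. Replicate 2 against replicate 1, across genotypes, gave 3 members higher and 2 lower, beside 64.9% of all tested genes called (32% up and 32.8% down). Spred1 was lower in replicate 2 by 1.86 on the log2 scale (-1.86 ± 0.14 SE, limma adjusted p = 5.05e-06), -2.01 in KO, -2.01 in C54Y and -1.57 in WT. Dusp4 was lower by the fit (-0.73 ± 0.21, adjusted p = 0.0132), but only in C54Y (-1.11) and WT (-1.05), with -0.03 in KO. Etv4 (0.69 ± 0.14, adjusted p = 0.00185), Ier3 (0.60 ± 0.17, adjusted p = 0.0126) and Etv5 (0.38 ± 0.11, adjusted p = 0.0111) were higher in replicate 2. In all 3 genotypes Etv5 and Ier3 lay wholly above (29.7% of all tested genes) and Spred1 and Fos wholly below (31.4%) when replicate 2 was set against replicate 1. Dusp6 was at -0.25 ± 0.13 (adjusted p = 0.135), the member whose KO change most exceeded its replicate difference. TMM scaling moved the median of all genes in this comparison to -0.0893, against 0.015 with the deposited size factors.

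**Figure D3:**
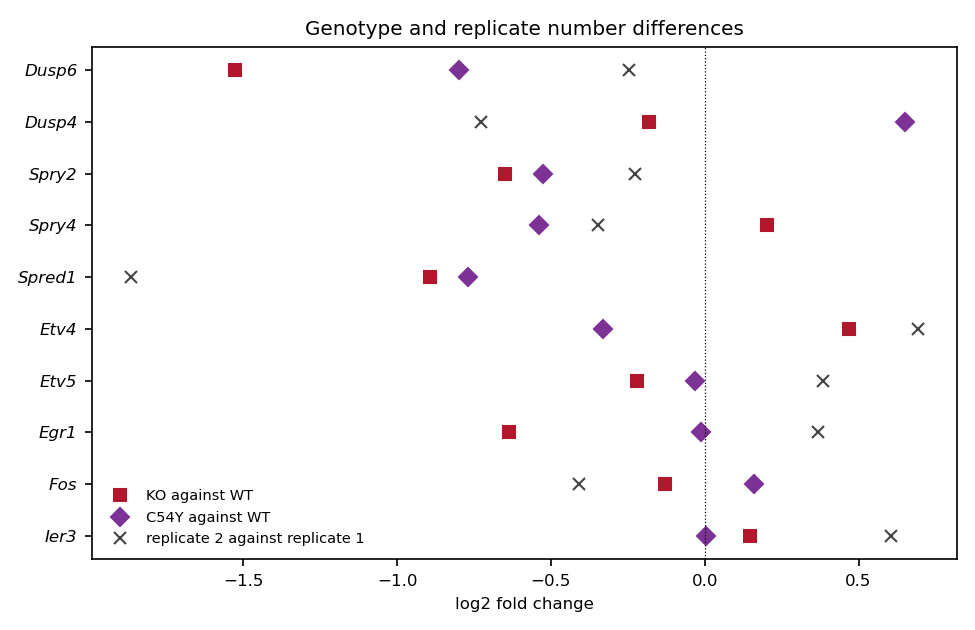
Log2 fold change of each member in KO against WT (squares), in C54Y against WT (diamonds) and in replicate 2 against replicate 1 (crosses), from the same fit. The genotype values of Dusp6 (-1.53 and -0.80) lie further from 0 than its replicate value (-0.25), whereas for Spred1 the replicate value (-1.86) is the largest.

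Scaled to exon length and library total (RPKM), Etv5 was the most abundant member in all 3 genotypes, at 60.6 ± 6.12 in KO, 75.9 ± 5.11 in C54Y and 77.8 ± 2.15 in WT (SD, n = 2 each). In WT it was followed by Spry2 (53.5 ± 10.5), Etv4 (38.0 ± 11.6), Dusp6 (37.9 ± 9.03), Spry4 (19.7 ± 1.53), Ier3 (13.0 ± 1.16), Spred1 (11.999 ± 10.1), Dusp4 (11.4 ± 7.55), Egr1 (2.32 ± 0.03) and Fos (1.06 ± 0.35). Etv4 and Dusp6 did not differ beyond their spread in WT, nor did Ier3, Spred1 and Dusp4. In KO, Dusp6 stood at 11.9 ± 2.71, near Ier3 (13.1 ± 2.76), while Etv4 stood at 46.6 ± 3.59, above Spry2 (31.4 ± 10.2) and Spry4 (22.2). C54Y held Dusp6 at 22.4 ± 9.77 and Etv4 at 29.4 ± 2.16. This scale divides by each library's total reads, so its spread between replicates differs from that of the normalized counts.

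The rest of the pathway was read from 9 lists by role, with 101 tested genes outside the members. In KO against WT 17 of these rose and 15 fell, 31.7% of the lists against 16.3% of all tested genes, with a median log2 fold change of -0.13. The lists too were chosen with earlier results known, so their share does not test them. Of these 32 calls, 13 were kept with each of the 6 libraries left out and in every alternative with the block: Atf3, Dusp22, Ets1, Fgf17, Fgf4, Fgf5, Fgfrl1, Flrt3, Fosl2, Klb, Klf6, Plaur and Zfp36. Leaving out WT replicate 2 ended 16 of the 32 calls (among them Araf, Btg2, Ccnd1, Dusp9, Elk1, Erf, Ets2, Fgf18, Fgf3, Ksr1, Lrig1, Map2k2, Rps6ka1 and Tfap2c), and leaving out WT replicate 1 ended 9.

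Among the FGF ligands, 4 of 15 tested genes rose and 2 fell in KO. Fgf4, the main ligand of embryonic stem cells, had 12090 and 13453 normalized counts in KO, 7759 and 12315 in C54Y and 6133 and 8929 in WT, and both KO libraries exceeded both WT libraries (0.79 ± 0.15, limma adjusted p = 0.01). By RPKM it was the most abundant ligand, at 100.5 in KO, 84.9 in C54Y and 64.3 in WT. Fgf17, of the Fgf8 subfamily, had 1225 and 1983 in KO, 737 and 911 in C54Y and 594 and 600 in WT (1.38 ± 0.20, adjusted p = 0.00302). Fgf18 (1.46, adjusted p = 0.0178) and Fgf3 (1.18, adjusted p = 0.0419) also rose, both at low counts. Fgf5, a marker of the epiblast after implantation, had 15.6 and 21.6 normalized counts in KO, 112 and 105 in C54Y and 113 and 78.5 in WT. It fell in KO against WT (-2.24 ± 0.34, limma adjusted p = 0.00388) and against C54Y (-2.44, adjusted p = 0.0366). Fgf8 fell as well (-1.78, adjusted p = 0.0328), a call that ended without KO replicate 1 (-1.02, adjusted p = 0.0978). The Fgf3 call ended without KO replicate 2 (adjusted p = 0.0704). Fgf2, Fgf9, Fgf12, Fgf14 and Fgf20 were too low to be tested.

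Of the 7 receptors and co-receptors, 0 rose and 2 fell in KO. Fgfrl1, a receptor-like protein without a kinase domain, had 247 and 406 normalized counts in KO, 492 and 463 in C54Y and 589 and 713 in WT (-1.03 ± 0.23, limma adjusted p = 0.0191). Klb, the co-receptor of endocrine FGFs, had 27.8 and 8.91 in KO, 15.0 and 27.3 in C54Y and 110 and 69.5 in WT (-2.31, adjusted p = 0.0183). The kinase receptors were not called in KO by limma: Fgfr1 was at -0.26 (adjusted p = 0.347), Fgfr2 at -0.62 (adjusted p = 0.0868), Fgfr3 at 0.16 (adjusted p = 0.685) and Fgfr4 at -0.74 (adjusted p = 0.102), and the co-receptor gene Kl at -1.60 (adjusted p = 0.0719). Limma-voom with the block called 4 of the 7 lower, adding Fgfr2 (-0.74, adjusted p = 0.0377) and Kl (-1.99, adjusted p = 0.0465). Kl was also called with no filter on low values (adjusted p = 0.0468). With a library left out, limma called Fgfr1 (-0.52, adjusted p = 0.00489) and Fgfr2 (-0.95, adjusted p = 0.000394) without KO replicate 2 and Fgfr4 (-0.90, adjusted p = 0.0403) without KO replicate 1. Fgfr1 was the most abundant of them, at 9.23 RPKM in KO, 13.7 in C54Y and 12.5 in WT. Of the 9 adaptors and Ras activators limma called 0 in KO (1 at an unadjusted p below 0.05), and edgeR, DESeq2 and limma-voom with the block each called 0. Grb2, which links receptors to the Ras activator Sos, came closest at 0.45 (adjusted p = 0.0625), beside Shc1 at -0.30 and Plcg1 at 0.10. With a library left out, limma called Grb2 (0.56, adjusted p = 0.00283) and Shc1 (-0.43, adjusted p = 0.0179) without KO replicate 2 and Plcg1 (0.38, adjusted p = 0.0378) without KO replicate 1.

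In the kinase cascade, 5 of 15 genes rose and 1 fell in KO. Those that rose included the Raf kinase gene Araf (0.62, limma adjusted p = 0.022), the MEK gene Map2k2 (0.49, adjusted p = 0.0423), the scaffold gene Ksr1 (1.10, adjusted p = 0.00994) and the ERK-activated kinase gene Rps6ka1 (0.52, adjusted p = 0.0229). All 6 calls of this list were among those that ended without WT replicate 2. Map2k2, like Fgf3 and the Ets gene Erf, was also not called by edgeR with TMM scaling (adjusted p = 0.0883 for Map2k2). Araf lies on the X chromosome, as do Elk1 and Dusp9 below, and the 567 tested X-linked genes had a median log2 fold change of 0.59 in KO, against 0.02 for 14659 autosomal genes. Of the X-linked genes 33.3% rose in KO, against 7.95% of the autosomal genes. In C54Y against WT the X-linked median was 0.25, against -0.01 for autosomal genes. The part of this X-linked shift in the 3 changes, or in those of the members, was not tested.

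Other inhibitor genes and Flrt3, which was listed with them, numbered 10 tested genes, of which 1 rose and 2 fell in KO. Flrt3, a membrane protein that binds FGF receptors, had 94.7 and 14.0 normalized counts in KO, 123 and 23.4 in C54Y and 351 and 56.6 in WT, and fell by the same amount within each replicate (-1.87 and -1.87, limma adjusted p = 0.00467). Spred3, a paralogue of Spred1, fell too (-1.23, adjusted p = 0.0296), a call that ended without WT replicate 1 (-0.97). Lrig1, an inhibitor of receptor tyrosine kinases, rose (0.84, adjusted p = 0.0139). That call ended without WT replicate 1 (0.86) and without WT replicate 2 (0.83). Among 9 other dual-specificity phosphatases, 1 rose, Dusp9 (0.56, adjusted p = 0.0205), an ERK phosphatase gene with 10626 and 24804 normalized counts in KO, 6894 and 16981 in C54Y and 7820 and 15510 in WT. Its change was opposite in sign to that of Dusp6. Dusp2 (-1.07, adjusted p = 0.0503) and Dusp14 (-0.85, adjusted p = 0.1) were not called by limma with the deposited scaling. Dusp2 was called lower by limma with TMM scaling or a pseudocount of 8, by edgeR and by limma-voom (adjusted p between 0.0365 and 0.0424). Dusp14 was called lower by limma-voom (-0.98, adjusted p = 0.0482), without KO replicate 2 (-1.47, adjusted p = 3.98e-05) and without WT replicate 2 (-1.23, adjusted p = 0.0279).

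Of 9 other Ets and serum response factor partner genes, 3 rose and 1 fell in KO. Ets2 (0.99, limma adjusted p = 0.00997), Elk1 (0.95, adjusted p = 0.011), which partners serum response factor at immediate early genes, and Erf (0.57, adjusted p = 0.0258), an Ets repressor that ERK moves out of the nucleus, rose. Ets1 fell, with 73.8 and 81.5 normalized counts in KO, 311 and 142 in C54Y and 545 and 167 in WT (-1.94, adjusted p = 0.0128). Among 17 other immediate early genes, 5 fell and 1 rose. Klf6, a Krüppel-like factor gene, had 1551 and 611 normalized counts in KO, 2709 and 1065 in C54Y and 4064 and 1526 in WT, a fall of similar size within each replicate (-1.39 and -1.32, adjusted p = 0.00102). Fosl2, an AP-1 subunit (-1.74, adjusted p = 0.0194), the stress-responsive factor Atf3 (-1.25, adjusted p = 0.0122), the RNA-decay factor Zfp36 (-1.18, adjusted p = 0.0159) and the growth inhibitor Btg2 (-0.59, adjusted p = 0.0231) also fell. Klf10 rose (0.73, adjusted p = 0.0158), a call that ended without WT replicate 1 (0.67). The calls of Btg2 (-0.56) and of Ccnd1 (0.45), named below, also ended without WT replicate 1. Myc stood at -0.61 (adjusted p = 0.113), called only without WT replicate 1 (-1.06). Of 10 further ERK-responsive genes, 2 fell, the urokinase receptor gene Plaur (-1.39, adjusted p = 0.00727) and Dusp22 (-1.25, adjusted p = 0.00975), and 2 rose, the cyclin gene Ccnd1 (0.55, adjusted p = 0.0244) and Tfap2c (0.74, adjusted p = 0.0244), while Mcl1 was at -0.42 (adjusted p = 0.078). Mcl1 was called lower by limma with TMM scaling (-0.51, adjusted p = 0.0338), edgeR (adjusted p = 0.0364) and limma-voom (adjusted p = 0.0232), all with the block, and by limma without KO replicate 1 (adjusted p = 0.000229) or WT replicate 1 (adjusted p = 0.0315).

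**Figure D4:**
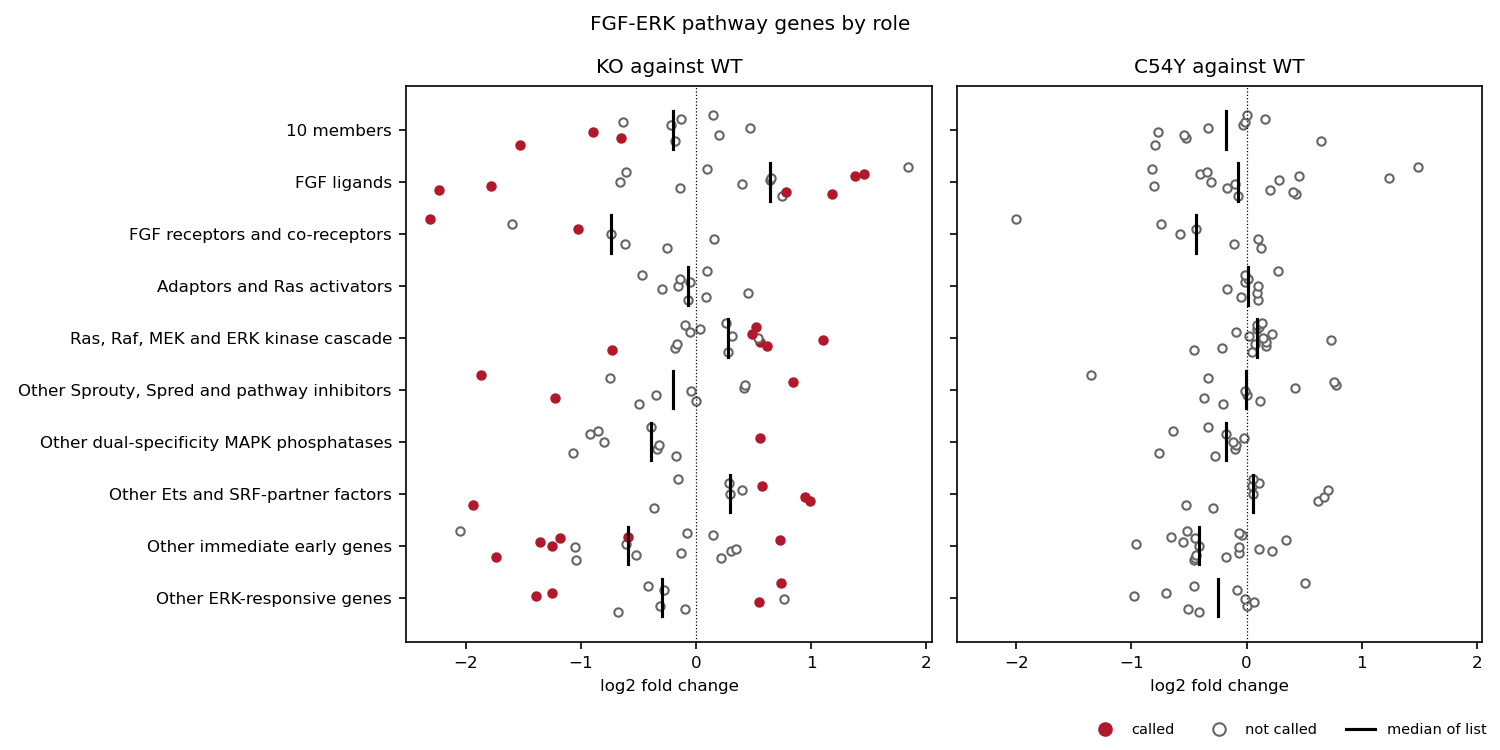
Log2 fold change of every tested pathway gene in KO against WT (left) and C54Y against WT (right), grouped by role, with filled points for called genes and bars for list medians. Calls in KO lie on both sides of 0 in most lists, with 17 up and 15 down outside the members, and no gene is called in C54Y.

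In C54Y against WT limma called 0 of the 101 other pathway genes, with 22 at an unadjusted p below 0.05. Of all tested genes 1.36% were called and 12.3% had an unadjusted p below 0.05. With the block, edgeR called 1 (Flrt3), limma-voom 4 and DESeq2 8, beside 198, 274 and 479 of all 15287 genes. Fgf15 came closest by limma (1.24, adjusted p = 0.051), ahead of Btg2 (-0.66, adjusted p = 0.0701), Flrt3 (-1.35, adjusted p = 0.073) and Lrig1 (0.76, adjusted p = 0.0849). Leaving out KO replicate 1 left these C54Y against WT values unchanged, and the calls that limma then made came with a changed estimate of the spread. In KO against C54Y limma called 1, Fgf5, with 27 at an unadjusted p below 0.05, against 0.19% and 15.4% of all tested genes. EdgeR with the block called 3, Fgf5, Fgf18 and Klf6, beside 101 of all 15287 genes.

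Markers of other cells that these cultures could hold differed between libraries, those of endoderm with genotype and those of fibroblasts mainly with replicate number. The summed level of 12 primitive and parietal endoderm markers was 18784 and 24903 normalized counts in KO, 19181 and 22993 in C54Y and 45023 and 29240 in WT, all markers being above 0 in every library. Sparc alone held 11369 and 18264 of these counts in KO, 10043 and 15321 in C54Y and 17247 and 14659 in WT. The median log2 fold change of the 12 markers was -2.09 in KO (-2.19 within replicate 1 and -2.02 within replicate 2) and -1.53 in C54Y (-1.66 and -1.47). In KO 10 of the 12 fell and in C54Y 8 of the 12, in the same comparisons in which Dusp6, Spry2 and Spred1 were lower. Their part in the members' results was not tested. Of the 6 embryonic stem cell markers 3 rose in KO, and their sum was 258064 and 458589 in KO, 164123 and 382061 in C54Y and 148336 and 332608 in WT. The 12 fibroblast markers, which the feeders would bring, summed to 2632 and 16034 in KO, 4979 and 17494 in C54Y and 5019 and 15174 in WT, and 9 of the 11 tested were higher in replicate 2. In KO against WT 1 of these 11 fell (Mmp2), while 9 had negative and 2 positive log2 fold changes. Their median was -0.48 in KO against WT (-1.07 within replicate 1 and -0.07 within replicate 2). It was 0.13 in C54Y against WT and -0.61 in KO against C54Y. Lum was at 0 in 5 of the 6 libraries. The fibroblast sum was thus higher in replicate 2 in each genotype, as were Etv5, Ier3 and Etv4, whereas Spred1 was lower there in each genotype and Dusp4 was lower in C54Y and WT. The part of feeder RNA in those differences, and in the changes in KO, was not tested.

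**Figure D5:**
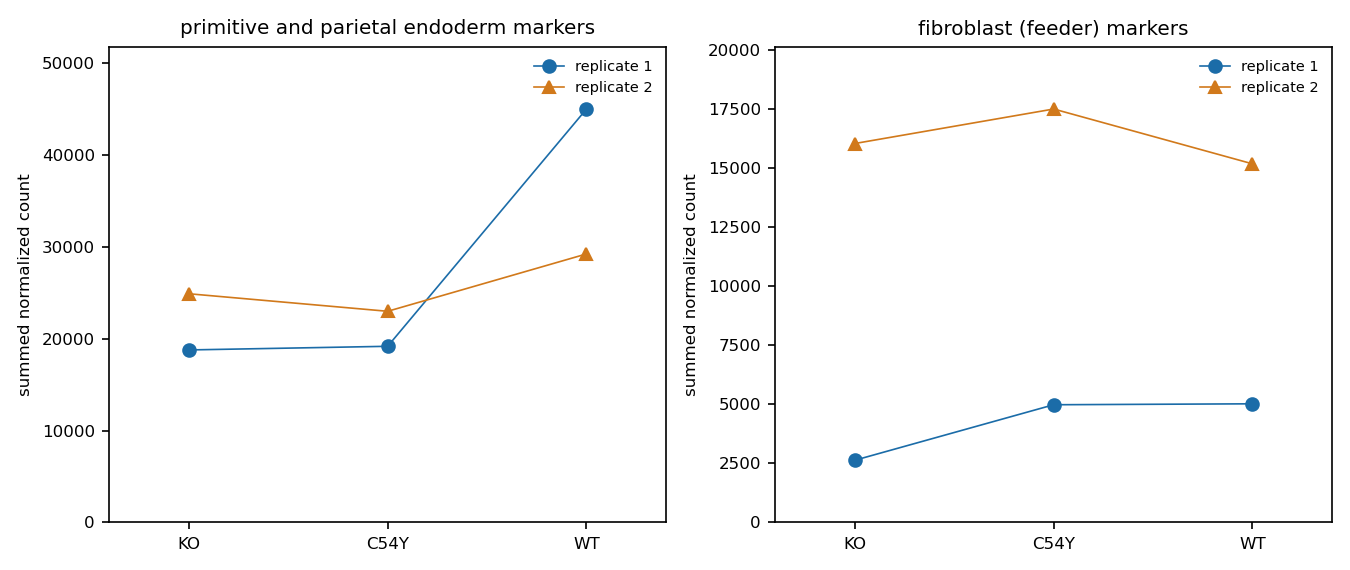
Summed normalized counts of 12 endoderm markers (left) and 12 fibroblast markers (right) in KO, C54Y and WT libraries (circles, replicate 1; triangles, replicate 2). Endoderm sums are highest in WT within each replicate number, at 45023 and 29240, and fibroblast sums are higher in replicate 2 in every genotype.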

How the data were processed

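The deposited signal values are normalized counts, 1 for each gene in each library: per the submitters' processing notes, CASAVA, Trimmomatic, TopHat2 2.1.0, HTSeq, DESeq2 and build mm9 were used by the authors, and their parameters, strand setting and annotation are not given in the sources used here. Dividing each column by its smallest step gave whole reads for 100% of values (tolerance 1e-06).

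The 15287 genes reaching 10 normalized counts in 2 or more libraries were tested with limma 3.58.1 (robust trend, R 4.3.3) on log2(normalized count + 2) over all 6 libraries, with replicate number as a block and 2 residual degrees of freedom. The added 2 understates fold changes of low genes. Libraries of the same number deviated together from their group means (correlations 0.895 for KO and C54Y, 0.869 for KO and WT, 0.907 for C54Y and WT), and the labels do not say what the number marks. On the recovered reads, edgeR 4.0.16, DESeq2 1.42.0 and limma-voom were alternatives, beside other pseudocounts, filters and scalings, no block, and each library left out. The procedure was also run on simulated data in which the difference between replicate numbers was the same in every genotype. That setting favours the block, so the run does not test its use here. Exon lengths came from GENCODE M21 and promoters from RefSeq on GRCm38.p6, and no mm9 coordinates were used.

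The members and lists were chosen with earlier results of these data known. Genes named are all members and Thap1, the 2 of smallest p from each pathway list in KO and in C54Y against WT, every list gene called there (a few are not reported here), all FGF receptors, Fgf4 and Dusp9, with Mmp2, Lum, Sparc and Rn45s named after their values were seen.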

Additional observations from a re-analysis of the deposited data

Results flagged for a closer look

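Fgf5 met a test of the difference between the mutants' effects. Its change in KO against WT was -2.24 and in C54Y against WT 0.20, and KO against C54Y was -2.44 (limma with the replicate block, adjusted p = 0.0366), with both KO libraries, at 15.6 and 21.6 normalized counts, below the C54Y libraries, at 112 and 105. The sign in C54Y turned without WT replicate 2 (-0.14). No other named gene of the pathway passed that test.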

How the results depend on the processing

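Without the replicate block, limma called 0 genes and 0 members in all 3 genotype comparisons, and edgeR without it, an alternative added after the data were seen, also called 0. Dusp6 in KO kept its value (-1.53, adjusted p = 0.576). Other settings moved counts by over 1.5 times in C54Y against WT (208 genes, 479 by DESeq2) and in KO against C54Y (29 genes, 101 by edgeR, 452 by DESeq2, 297 by limma-voom). Members called numbered 2 by DESeq2 and 2 by limma-voom in each of these, against 0 by limma. Leaving out each library gave 1749 to 4861 genes in KO against WT, 69 to 1818 in C54Y against WT and 7 to 2831 in KO against C54Y, and 2 to 7, 0 to 4 and 0 to 5 members. With 1 residual degree of freedom, these fits assume that a lone library varies like the other groups. Leaving out a library of the genotype outside a comparison changes only the estimate of the spread.

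Signs turned in 36 fits of named genes, none of which were called. In KO against WT, leave-one-out ranges spanned 0 for Dusp4 (-0.71 to 0.34), Fgfr1 (-0.52 to 0.011), Fos (-0.34 to 0.079), Ier3 (-0.13 to 0.43), Plcg1 (-0.18 to 0.38) and Spry4 (-0.25 to 0.66). Plcg1 was also at -0.039 by edgeR without the block and -0.017 by limma-voom. In C54Y against WT they spanned 0 for Ccnd1 (-0.031 to 0.16), Dusp9 (-0.16 to 0.11), Egr1 (-0.37 to 0.34), Erf (-0.068 to 0.16), Ets1 (-1.12 to 0.078), Etv5 (-0.14 to 0.079), Fgf5 (-0.14 to 0.54), Fgfr1 (-0.059 to 0.30), Fgfr2 (-0.30 to 0.079), Fgfr3 (-0.14 to 0.33), Fosl2 (-0.78 to 0.42) and Ier3 (-0.27 to 0.28). There Dusp9 was at 0.0062 by edgeR without the block, Egr1 at 0.0082 by DESeq2, and Ier3 at -0.018 with TMM in limma, -0.031 by edgeR, -0.0077 by DESeq2 and -0.029 by limma-voom. In KO against C54Y Ier3 ran from -0.0062 to 0.29. The cause of these changes was not tested. Fos (49 to 159 reads) limits what its depth can show.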
